A study of Camellia reticulata with 27 samples.

Results

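The 200 transcripts described here were high in the buds of all 3 Yunnan Camellia cultivars and low in the full-bloom flowers of all 3. They were chosen from 225938 assembled transcripts by their group mean expression. The 86 transcripts that the study lists by name in a supplement were set aside first. Of the transcripts, 55099 had a mean of at least 5 FPKM (expression per kilobase of transcript, scaled to the mapped fragments of the library) in at least 1 group, and 55013 of them were ranked. The score of a transcript was its lowest bud group mean minus its highest full-bloom group mean, each as log2(FPKM + 1), and the 200 highest scores were kept. The bud and full-bloom levels therefore chose the members, and the difference between them is given below as a description without a test.

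RNA was sequenced from Camellia reticulata in 9 groups of 3 libraries, 27 in all. The labels give the tissue as flowers, and the study's methods describe petals. The white Tongzimian (TZM) and the red Shizitou (SZT) were each represented by buds and by flowers in full bloom. Manao (MN), a bud variant of SZT with red and white petals, was sampled at bud stage 1, bud stage 3 and initial flowering, and at full bloom from its white and red regions separately. No group carried a treatment. The labels do not say whether the 3 libraries of a group came from separate plants, so the p-values below measure the spread between these libraries only. The files give no names or sequences for the transcripts, so petal identity could not be checked with marker genes, and the members are named by their identifiers.

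A petal grows within the closed bud by cell division and then by cell expansion, and opening of the flower is driven largely by expansion. In many plants the enzymes that make anthocyanins, the red and purple flavonoid pigments, are transcribed mainly before the flower opens, and MYB and bHLH transcription factors, which bind DNA and work in complexes, switch on their genes. A transcript that is high in buds and low in open flowers can belong to growth, to pigment synthesis or to other processes of the young petal. The level of a transcript in a petal sample is an average over its cells, so fewer cells of a type and less RNA per cell cannot be told apart.

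The libraries were of similar size on the scale of the files. Their FPKM values summed to 1117467 to 1320744, and 126900 to 148030 transcripts were above 0 in a library. The number of reads behind a value is unknown, since the values are FPKM rounded to 2 decimals and did not fall on steps from which reads could be recovered. No 2 libraries were identical.

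The members made up 2.37% to 5.27% of all FPKM in the 12 bud libraries, 0.595% to 0.842% in the 3 libraries of initial flowering and 0.0200% to 0.0879% in the 12 full-bloom libraries. The bud share was highest in MN, at 3.91% to 4.62% at bud stage 1 and 4.15% to 5.27% at bud stage 3. It was 2.95% to 3.21% in SZT buds and 2.37% to 2.74% in TZM buds. A single transcript, Cluster-60310.4, accounted for much of the size of these differences, and without it the bud libraries lay between 2.27% and 3.31%. The order of the group means stayed the same, at 3.26% for MN bud stage 3, 2.99% for MN bud stage 1, 2.71% for SZT and 2.48% for TZM. The SZT libraries, at 2.27% to 3.15%, then overlapped those of TZM and of MN bud stage 1. The median member stood at 32.2 to 71.8 FPKM in a bud library, at 8.15 to 12.7 FPKM in a library of initial flowering and at 0.170 to 0.945 FPKM in a full-bloom library. These 3 ranges did not overlap, which for bud against full bloom follows from the choice of the members.

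**Figure D1:**
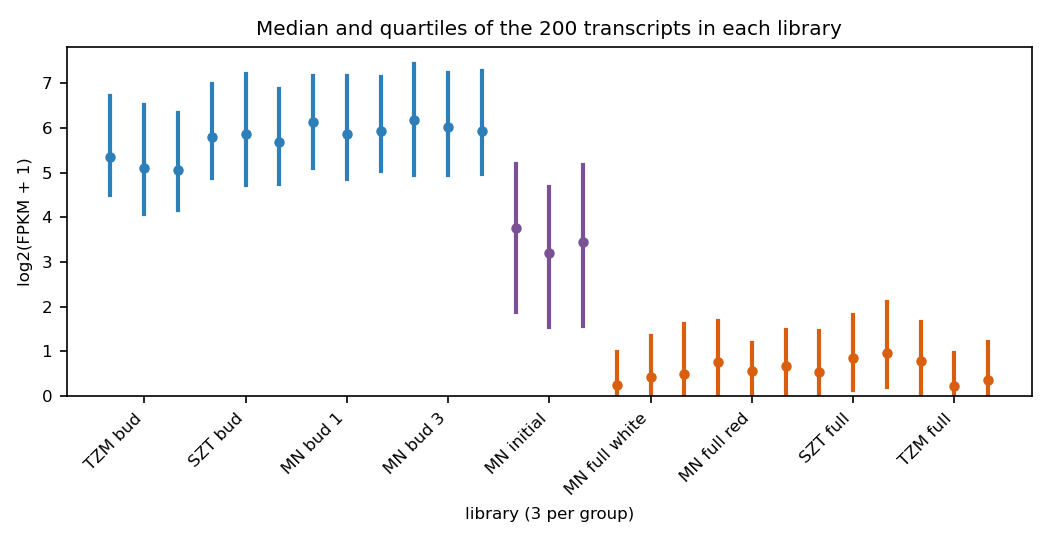
Median (point) and quartiles (line) of log2(FPKM + 1) over the 200 transcripts in each of the 27 libraries, in blue for buds, purple for initial flowering and orange for full bloom. The medians correspond to 32.2 to 71.8 FPKM in buds, 8.15 to 12.7 FPKM at initial flowering and 0.170 to 0.945 FPKM at full bloom.

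In 180 of the 200 members every bud library was above every full-bloom library. The same was true of 8.75% of all transcripts tested, and nothing is read from the comparison because the rule used these libraries. The other 20 overlapped although their group means were far apart. In 16 of these 20 at least 1 bud library was listed at 0, in the most extreme case 7 of the 12, and 15 of the 20 were at 0 in all full-bloom libraries. The remaining 4, Cluster-72601.10, Cluster-80287.6, Cluster-75429.1 and Cluster-80287.3, were named after their values were seen and had no bud library at 0. A mean of 3 libraries thus stood for 1 or 2 libraries with expression in some of the members.

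The members differed widely in level. Their mean over the 12 bud libraries ran from 11.8 to 9157 FPKM with a median of 60.2, and it was at least 100 FPKM in 63 members and at least 1000 FPKM in 10. Their mean over the 12 full-bloom libraries ran from 0 to 55.8 FPKM with a median of 0.684, and it was under 1 FPKM in 122 members. At full bloom 24 members were listed at 0 in all 12 libraries and 84 were above 0 in all 12. The highest bud group was MN bud stage 1 for 73 members, MN bud stage 3 for 65, TZM for 32 and SZT for 30. The lowest bud group was TZM for 114 members, MN bud stage 1 for 34, SZT for 31 and MN bud stage 3 for 21.

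Scores ran from 7.38 down to 2.99 on the log2 scale, with a median of 3.56. The highest score belonged to Cluster-47577.0. Its libraries read 306, 57.1 and 135 FPKM in TZM buds, 233, 181 and 317 FPKM in SZT buds, 565, 341 and 682 FPKM at MN bud stage 1 and 352, 204 and 179 FPKM at MN bud stage 3. It was listed at 0 in all 12 full-bloom libraries, and at 3.59, 3.56 and 0 FPKM at initial flowering. All bud libraries were thus high and all later ones low, and no fold is given against the groups at 0.

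The second, Cluster-64286.0, stood at 309 ± 35.9 FPKM in TZM buds (SD, n = 3), 435 ± 237 in SZT buds, 347 ± 34.3 at MN bud stage 1 and 1194 ± 86.6 at MN bud stage 3. It was at 48.2 ± 19.4 FPKM at initial flowering. Its 12 full-bloom libraries ran from 0.280 to 2.92 FPKM with a median of 1.005, below every bud library, the lowest of which read 165 FPKM.

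At the other end, the last members were Cluster-71126.0 and Cluster-73063.0, both with a score of 2.99. Cluster-71126.0 ran from 8.01 to 31.5 FPKM in the bud libraries, with a median of 17.1, and from 0 to 0.870 FPKM at full bloom. Cluster-73063.0 ran from 19.8 to 43.2 FPKM in buds, with a median of 29.1, and from 0.620 to 3.02 FPKM at full bloom. Just outside the list were Cluster-21367.0, with a score of 2.98, and Cluster-40422.3, also with 2.98. Cluster-40422.3 resembled the last members, at 20.9 to 61.6 FPKM in buds and 1.04 to 2.47 FPKM at full bloom. Cluster-21367.0 was at 0 in most of its bud libraries and reached 36.8 FPKM in 1, which shows how far the group mean can hide single libraries at this level.

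The most abundant member in buds was Cluster-60310.4. Its libraries read 237, 635 and 188 FPKM in TZM buds, 3894, 680 and 8199 FPKM in SZT buds, 17327, 10423 and 18217 FPKM at MN bud stage 1 and 25083, 13246 and 11750 FPKM at MN bud stage 3. It read 23.4, 17.8 and 36.9 FPKM at initial flowering and 2.95 to 21.2 FPKM at full bloom. The MN buds were the highest and the TZM buds the lowest of the bud groups, and the SZT libraries were spread over a wide range between them. Bud and full-bloom libraries were far apart in every cultivar.

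Cluster-76618.0 was the second most abundant and more even. It stood at 3164 ± 294 FPKM in TZM buds (SD, n = 3), 1911 ± 774 in SZT buds, 1926 ± 226 at MN bud stage 1 and 2115 ± 258 at MN bud stage 3, then at 676 ± 150 FPKM at initial flowering. Its full-bloom libraries were uneven and ran from 1.15 to 156 FPKM. Even the highest of them was well below the lowest bud library, at 1436 FPKM.

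**Figure D2:**
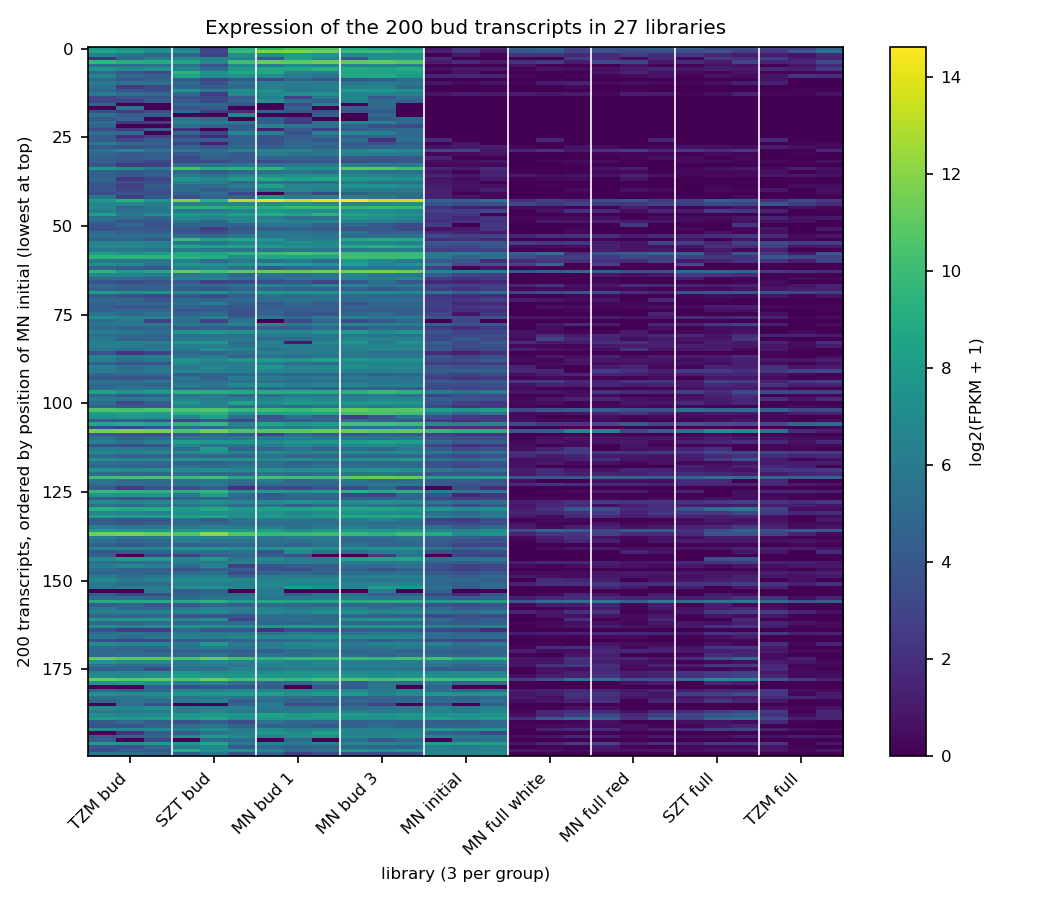
Expression of each of the 200 transcripts (horizontal lines of the map) in 27 libraries (columns, 3 per group), as log2(FPKM + 1) from dark (0) to yellow, ordered by the position of MN initial flowering between full bloom and bud. The 12 bud columns on the left are bright and the 12 full-bloom columns on the right are dark, and the 3 columns of initial flowering change from dark at the top to bright at the bottom.

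Replicate libraries of the buds did not scatter equally. Over the members the median SD of log2(FPKM + 1) was 0.49 in SZT buds and 0.24 to 0.31 in the other 8 groups, and over all transcripts tested it was 0.36 in SZT buds. Of the SZT bud libraries, replicates 2 and 3 were each the lowest of the 3 for 81 members and replicate 1 for 35. At initial flowering replicate 2 was the lowest of its 3 for 123 members and replicate 1 the highest for 119.

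Whether the fall from bud to full bloom held in libraries that played no part in the choice was asked with lists chosen anew, each with 1 cultivar left out. The same rule gave 200 transcripts from the other 2 cultivars, and the contrast was then tested in the cultivar that had been left out. A transcript was called when limma gave a log2 difference of at least 1 in size and an adjusted p of at most 0.001. The adjustment was over all 55099 transcripts. Because MN is a bud variant of SZT, the lists chosen without SZT and without MN still rested on a close relative. From SZT buds to MN bud stage 3, 0.162% of all transcripts tested were called higher and 0.102% lower. From SZT to TZM buds the shares were 6.5% and 8.46%. These lists are therefore weaker checks than the list chosen without TZM.

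The list chosen without TZM shared 95 transcripts with the members. In TZM flowers 147 of its 200 were called lower at full bloom than in buds, against 10.8% of all transcripts tested, with a median difference of -3.17 on the log2(FPKM + 1) scale. The list chosen without SZT shared 147 with the members, and 175 of its 200 were called lower in SZT, against 16.4% of all, with a median of -4.10. The list chosen without MN also shared 147, and 168 of its 200 were called lower in MN from bud stage 3 to the mean of both full-bloom regions, against 19.8% of all, with a median of -4.82. None of the 3 lists had a transcript called higher. The medians over all transcripts tested were -0.09 in TZM, -0.23 in SZT and -0.20 in MN, and scaling the libraries by median ratios moved these by 0.09, 0.23 and 0.22. The count fell to 33 for TZM and 56 for SZT when the fit used only the libraries of that contrast.

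Initial flowering was sampled only in MN, and its 3 libraries took no part in the score. The level of each member there was placed on a scale on which 0 is its highest full-bloom group mean and 1 its lowest bud group mean, both as log2(FPKM + 1). The lowest bud group was TZM for 114 of the 200 members and SZT for 31. For these members 1 is the level of another cultivar and lies below both MN bud means. A high position is therefore not a level near the MN buds, and the scale mixes cultivar with stage. The median position of the 200 members was 0.58, with quartiles at 0.27 and 0.78. Taken one library at a time the median was 0.64, 0.49 and 0.57 (SD 0.0741, n = 3). The median over the 2798 transcripts tested whose gap between full bloom and bud was over 1 on the log2 scale was 0.55. These 2798 include the members, and the difference between the medians was not tested.

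Single members covered the whole range from -0.85 to 1.87. In 26 the level at initial flowering was at or below the highest full-bloom mean of any cultivar. In 54 it was inside the gap and nearer to that mean. In 95 it was inside the gap and nearer to the lowest bud mean of any cultivar, and in 25 it was at or above the latter. The shares at the ends, 13.0% and 12.5%, compare with 16.8% and 20.2% of the 2798 transcripts. The rule gave the members wider gaps than the 2798 needed, which can lower such shares, so nothing is read from the difference. At initial flowering 15 members were listed at 0 in all 3 libraries and 167 were above 0 in all 3.

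**Figure D3:**
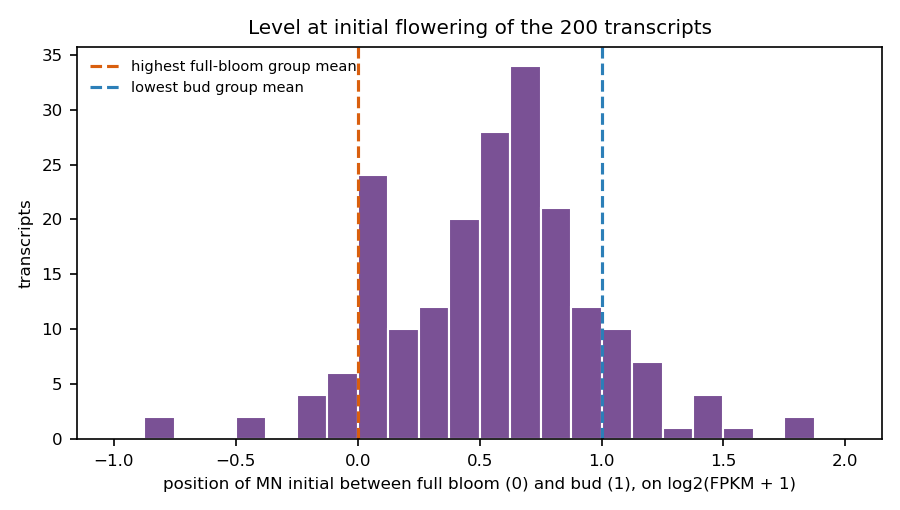
Number of the 200 transcripts by the position of MN initial flowering between the highest full-bloom group mean (0, orange line) and the lowest bud group mean (1, blue line), on log2(FPKM + 1). The median is 0.58, 26 transcripts lie at or below 0 (those at exactly 0 are drawn in the bar right of the line) and 25 at or above 1.

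The 26 members that were already as low as full bloom had a median of 68.2 FPKM at MN bud stage 1 and 69.3 FPKM at bud stage 3, and a median of 0 FPKM at initial flowering. They were highest at MN bud stage 1 in 13 cases and at MN bud stage 3 in 8. Only 15 of the 26 had every bud library above every full-bloom library. In the other classes, from low to high position, it was 52 of 54, 92 of 95 and 21 of 25. The rule used these bud and full-bloom libraries, and the difference between the classes was not tested, so nothing is read from it. The 25 members still at the level of a bud group had a median of 75.2 FPKM at initial flowering, beside 62.3 FPKM at bud stage 1 and 64.6 FPKM at bud stage 3. These were highest in SZT buds in 9 cases, at MN bud stage 1 in 8, in TZM buds in 6 and at MN bud stage 3 in 2. No test was run of how the bud groups differ between these sets.

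The lowest positions belonged to Cluster-80287.3 and Cluster-80287.6. Cluster-80287.6 read 438, 318 and 164 FPKM in TZM buds, 155, 7.56 and 916 FPKM in SZT buds, 3545, 3345 and 2648 FPKM at MN bud stage 1 and 892, 1011 and 747 FPKM at MN bud stage 3. It read 1.76, 3.88 and 0.980 FPKM at initial flowering and 3.90 to 49.6 FPKM at full bloom. The level at initial flowering was thus below that of all 12 full-bloom libraries. Replicate 2 of the SZT buds was within the range of full bloom, and it alone made the groups overlap.

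Cluster-80287.3 had the same shape, from 283 to 1483 FPKM in MN buds, 0.860, 3.73 and 1.97 FPKM at initial flowering and 5.69 to 27.8 FPKM at full bloom, again with SZT bud replicate 2 the lowest bud library at 5.37 FPKM. From initial flowering to MN full bloom its difference was 2.42 (SE 0.85, limma adjusted p = 0.0301), which was not called. That of Cluster-80287.6 was 1.97 (SE 0.89, limma adjusted p = 0.0914), which was not called either.

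The highest positions belonged to Cluster-93649.13 and Cluster-101409.2. Cluster-93649.13 read 58.2, 42.4 and 23.9 FPKM in TZM buds, 22.7, 49.9 and 12.1 FPKM in SZT buds, 24.1, 5.81 and 9.81 FPKM at MN bud stage 1 and 9.62, 9.91 and 13.1 FPKM at MN bud stage 3. At initial flowering it read 94.1, 97.9 and 109 FPKM, and it was listed at 0 in all 12 full-bloom libraries. The 3 libraries of initial flowering were above every bud library. This was the 1 member called higher from MN bud stage 3 to initial flowering, by 3.10 (SE 0.40, limma adjusted p = 3.35e-06). The 40 other transcripts under its number together stood at 478 FPKM on average over the bud groups. They stood at 1351 FPKM at initial flowering and 557 FPKM over the full-bloom groups. The loss at full bloom is thus that of this transcript and not of its number as a whole.

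Cluster-101409.2 was at 91.6 ± 14.1 FPKM at initial flowering (SD, n = 3), between the MN buds of stage 1 at 61.6 ± 37.0 and of stage 3 at 184 ± 27.3. It was at 267 ± 193 FPKM in SZT buds and 14.7 ± 4.36 FPKM in TZM buds. Its high position came from this low TZM group, since the scale takes the lowest bud group as 1.

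Within MN, 157 of the 200 members had all 6 bud libraries above all 3 libraries of initial flowering, against 19.8% of all transcripts tested. All 3 libraries of initial flowering were above all 6 full-bloom libraries in 150 members, against 23.8% of all. All 3 were above all 6 bud libraries in 6 members, against 16.5% of all. The bud and full-bloom libraries in these counts were used to choose the members, which favours the first pair of counts and works against the last.

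From MN bud stage 3 to initial flowering 129 members were called lower and 1 higher, where 9.48% of all transcripts tested were called lower and 6.88% higher. The median difference of the members was -2.40, beside -0.01 over all transcripts tested. The bud libraries were part of the choice and the libraries of initial flowering were not, so a fall is favoured in this comparison. With a pseudocount of 0.01 in place of 1 the calls came to 74, and with only the 6 libraries of the comparison in the fit to 73.

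The largest falls were in a pair of members with the same number, Cluster-60310.7 and Cluster-60310.4. Cluster-60310.7 read 2074, 2191 and 1699 FPKM at MN bud stage 3 and 1.22, 2.60 and 1.12 FPKM at initial flowering, a difference of -9.59 (SE 0.70, limma adjusted p = 1.70e-09). At full bloom it read 1.21 to 5.52 FPKM in the white region and 1.06 to 8.48 FPKM in the red region. The drop was complete at initial flowering, and the later change of 0.89 (SE 0.60, limma adjusted p = 0.282) was not called. For Cluster-60310.4, whose libraries are given above, the difference was -9.25 (SE 0.68, limma adjusted p = 1.90e-09). Transcripts that share a number can share reads, and the sources used here do not say how reads were divided between them.

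From initial flowering to the mean of both MN full-bloom regions 135 members were called lower and 0 higher, where 8.64% of all transcripts tested were called lower and 6.01% higher. At an unadjusted p under 0.05, in either direction, limma found 164 members, against 43.9% of all. The median difference was -2.56, beside -0.18 over all transcripts tested, and scaling by median ratios moved the latter by 0.18. Here the full-bloom libraries were part of the choice.

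Cluster-93787.0 fell most. It read 923, 865 and 1166 FPKM at MN bud stage 3 and 1133, 548 and 659 FPKM at initial flowering, so these groups overlapped. At full bloom it read 0.740, 0.760 and 3.35 FPKM in the white region and 2.01, 1.84 and 0.710 FPKM in the red region. The difference from initial flowering was -8.27 (SE 0.47, limma adjusted p = 4.82e-11), and the change before it was -0.39 (SE 0.54, limma adjusted p = 0.634). In TZM and SZT buds it stood at 2039 ± 296 and 1579 ± 615 FPKM (SD, n = 3). This member kept the bud level through initial flowering, in contrast to Cluster-60310.7, which had lost it by then.

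The second largest fall was that of Cluster-93649.13, from 100 ± 7.59 FPKM (SD, n = 3) to a listed 0, with a fitted difference of -6.66 (SE 0.35, limma adjusted p = 2.10e-11). A fitted value against groups at 0 depends on the pseudocount and is no bound.

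**Figure D4:**
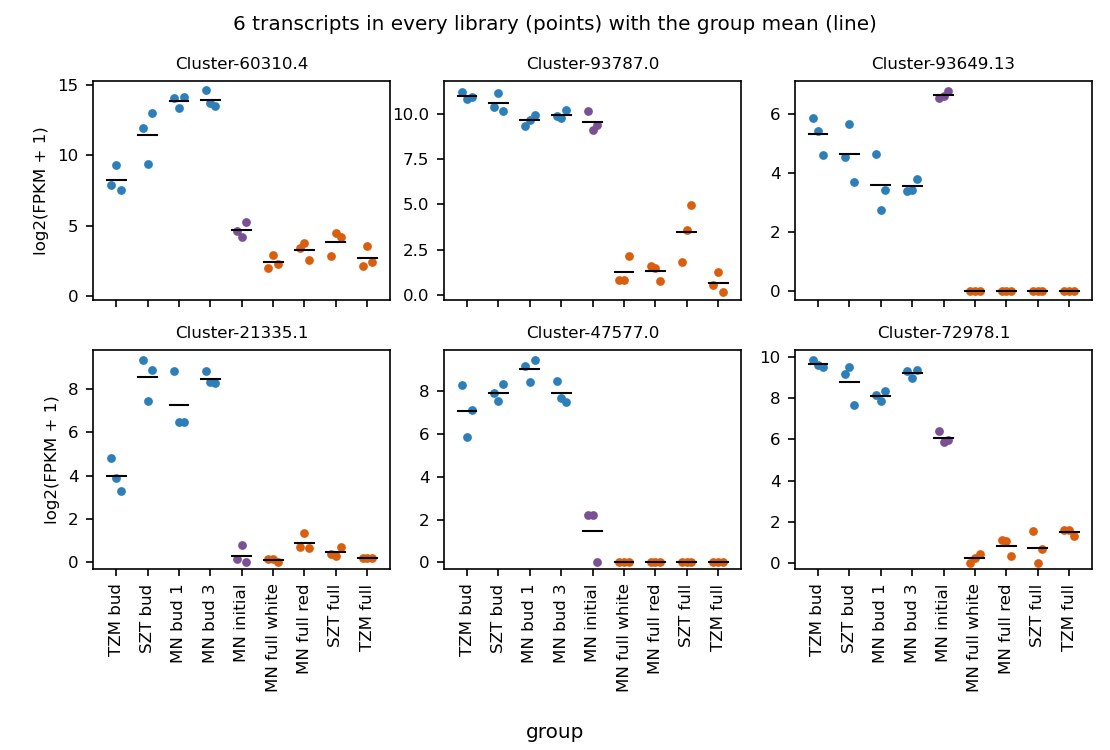
log2(FPKM + 1) of 6 of the transcripts in every library (points), with the mean of the 3 points of a group (line), in blue for buds, purple for initial flowering and orange for full bloom. At initial flowering Cluster-93787.0 stays near its bud level, Cluster-60310.4 is near full bloom, and Cluster-93649.13 is above all its bud libraries.

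The rule used all 4 bud groups, through the lowest of their means. A transcript very low in any of them could not enter, so the choice of members limits the differences between bud groups, and the counts are given beside the shares over all transcripts tested. From MN bud stage 1 to bud stage 3 limma called 0 members higher and 0 lower, where 0.174% of all transcripts tested were called higher and 0.12% lower. At an unadjusted p under 0.05, in either direction, there were 48 members, against 17.9% of all. The median difference of the members was 0.03, and it turned to -0.11 with median-ratio scaling. Without MN bud stage 1 replicate 1, 2 members were called. The highest scoring members moved in different directions here, since Cluster-64286.0 went from 347 to 1194 FPKM (1.78, SE 0.36, limma adjusted p = 0.00767) and Cluster-47577.0 from 529 to 245 FPKM (-1.12, SE 0.50, limma adjusted p = 0.243), neither of them called.

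From SZT buds to TZM buds, the red against the white cultivar, 29 members were called lower in TZM and 0 higher, where 8.46% of all transcripts tested were called lower and 6.5% higher. The median difference was -0.36, beside -0.04 over all transcripts tested, and 130 members were below 0 and 70 above. At an unadjusted p under 0.05, in either direction, there were 83 members, against 44.2% of all, a share not above the background. The count depended on the settings, since 4 were called lower with a pseudocount of 0.01 and 0 when the 6 libraries were fitted alone. With median-ratio scaling 25 were called lower and 2 higher, and the median difference was -0.22. At an adjusted p under 0.05 limma called 43 lower and 7 higher. SZT buds were the group with the largest spread.

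In these 29 the median group mean was 164 FPKM in SZT buds, 119 FPKM at MN bud stage 1, 173 FPKM at MN bud stage 3 and 18.9 FPKM in TZM buds. In the other members the corresponding medians were 53.3, 53.3, 56.7 and 38.6 FPKM. TZM was the lowest bud group in all 29. Their full-bloom medians lay between 0.240 and 0.507 FPKM, so TZM buds remained well above open flowers, as the rule requires. At initial flowering 22 of the 29 were inside the gap between full bloom and bud, 3 at or below it and 4 at or above it.

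The largest differences were those of Cluster-21335.1 and Cluster-5687.10. Cluster-21335.1 read 643, 174 and 468 FPKM in SZT buds and 27.2, 13.9 and 8.67 FPKM in TZM buds. It read 455, 87.9 and 89.2 FPKM at MN bud stage 1 and 452, 323 and 307 FPKM at MN bud stage 3. All SZT and MN bud libraries were above all TZM bud libraries, and the difference between SZT and TZM was -4.55 (SE 0.51, limma adjusted p = 5.29e-07). It was at 0.110, 0.740 and 0 FPKM at initial flowering and at most 1.59 FPKM at full bloom.

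Cluster-5687.10 read 991, 328 and 385 FPKM in SZT buds and 25.5, 25.9 and 13.9 FPKM in TZM buds, a difference of -4.51 (SE 0.39, limma adjusted p = 1.45e-08). It read 221, 67.0 and 69.9 FPKM at MN bud stage 1 and 427, 500 and 491 FPKM at MN bud stage 3, also without overlap with TZM. Both transcripts missed the limit with a pseudocount of 0.01 (limma adjusted p = 0.00304 and 0.00434) and in the fit of 6 libraries (limma adjusted p = 0.00813 and 0.00433).

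From SZT buds to the buds of its variant MN at stage 3, 1 member was called higher and 0 lower, where 0.162% of all transcripts tested were called higher and 0.102% lower. The median difference was 0.24, and 54 members had an unadjusted p under 0.05 in either direction, against 17.2% of all. The member was Cluster-32179.2, at 16.5, 31.1 and 18.4 FPKM in SZT buds and 80.0, 67.5 and 59.1 FPKM at MN bud stage 3, without overlap. The difference was 1.65 (SE 0.23, limma adjusted p = 0.000346). It read 63.6, 47.4 and 57.5 FPKM at MN bud stage 1 and 31.0, 17.5 and 20.0 FPKM in TZM buds, so the MN libraries were the higher ones at both stages. The 3 other transcripts under its number together averaged 118 FPKM over the bud groups and 116 FPKM over the full-bloom groups, so they did not share its fall at full bloom. The call was lost without MN bud stage 3 replicate 1 or 2, or without SZT bud replicate 1 or 3 (limma adjusted p = 0.00250 to 0.00281, and at the limit for the last). It was also lost with a pseudocount of 0.01 (limma adjusted p = 0.461) and with only the 6 libraries of the comparison in the fit (limma adjusted p = 0.164). The direction was kept in all of these.

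Between the regions of MN petals at full bloom, white and red, 0 members were called in either direction, where 0.0327% of all transcripts tested were called higher in red and 0.00363% lower. At an unadjusted p under 0.05, in either direction, there were 14 members, against 5.6% of all, and the median difference was 0.05. Both regions were used by the rule, which kept only transcripts whose highest full-bloom group mean was low, so a strong difference between them was largely barred. The members were near 0 in both regions, with a median group mean of 0.382 FPKM in white and 0.722 FPKM in red, so this comparison rests on low values.

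**Figure D5:**
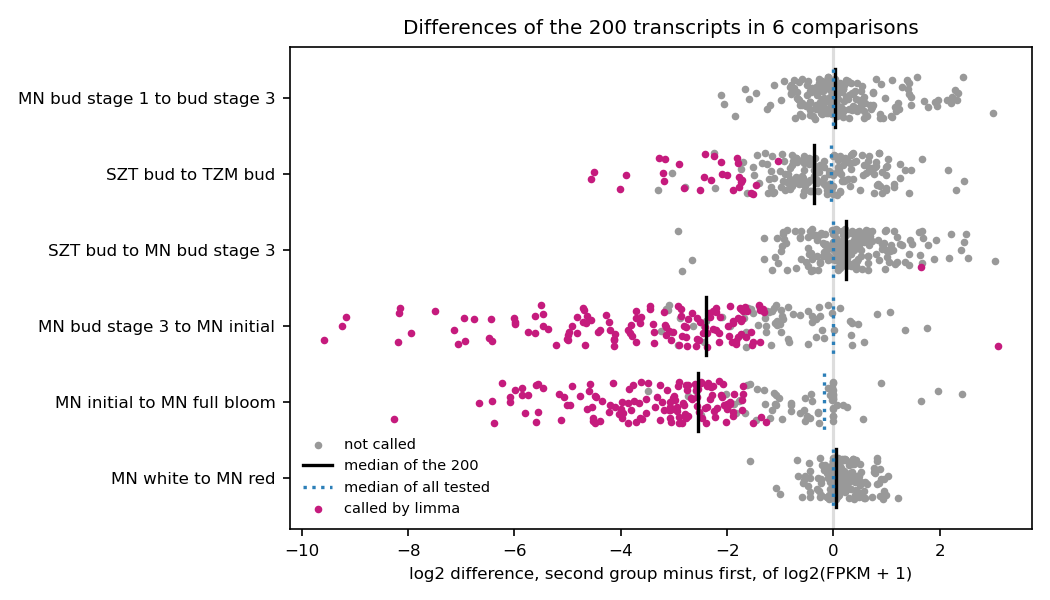
log2 difference (second group minus first, of log2(FPKM + 1)) of each of the 200 transcripts in 6 comparisons, in pink where limma called it, with the median of the 200 (black line) and of all transcripts tested (blue dotted line). Most members lie left of 0 in both comparisons with MN initial flowering (medians -2.40 and -2.56, with 13 and 8 members above 0), and the medians between bud groups lie from -0.36 to 0.24.

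The identifiers have a number before the point that several transcripts can share, and the sources used here do not say what it groups. The 200 members had 167 such numbers. Of these, 144 numbers held 1 member, 15 held 2, 7 held 3 and 1, Cluster-72601, held 5. For 60 numbers the table had no other transcript. For 95 numbers the other transcripts together reached a mean of 5 FPKM in a group, and in 54 of the 95 (56.8%) their sum was also lower in every full-bloom mean than in every bud mean. The same order held for 20.5% of all transcripts tested. The opposite order occurred for 1 of the 95. The 20.5% counts single transcripts and the 56.8% counts sums of transcripts. The others can also share reads with members chosen for this order. The shares are therefore unlike, and nothing is read from their difference.

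Summed over all transcripts of a number, members included, the level was lower in every full-bloom mean than in every bud mean for 153 of the 167 numbers, and lower by at least 1 on the log2 scale for 134. Over all transcripts tested the shares were 20.5% and 5.08%. For 60 numbers the members were the whole sum, and elsewhere they were part of it. The rule thus set much of both counts beforehand, and nothing is read from them. In 6 of the 95 numbers the others gained at full bloom at least as much FPKM as the members lost. Cluster-72601 was mixed. Its 5 members fell together from 373 FPKM over the bud libraries to 2.20 FPKM at full bloom, while its 16 other transcripts went from 693 to 353 FPKM, so the total fell less in proportion than the members. In Cluster-28114, by contrast, 3 members went from 144 to 0.307 FPKM and the 12 others from 28.5 to 0.0325 FPKM.

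The transcripts that the study lists by name were scored by the same rule, as a list to set beside the members. Because these very samples guided the study's choice, the list is not independent evidence of a direction. Of its 86 transcripts, 13 had a score at or above that of rank 200, beside 200 of the 55013 ranked transcripts. In 66 of the 86 every bud library was above every full-bloom library, against 8.75% of all transcripts tested. By name these 13 were 3 of 6 CHS, chalcone synthase, the entry enzyme of flavonoid synthesis, 4 of 6 F3H, flavanone 3-hydroxylase, which acts after it, and 1 of 3 ANS, anthocyanidin synthase, which makes the coloured anthocyanidins. The other 5 were among the 48 transcription factor transcripts. None of 3 DFR (dihydroflavonol reductase), 2 ANR (anthocyanidin reductase, which turns anthocyanidins towards colourless flavanols) and 18 transcripts listed for other functions reached that score. The ANR transcripts had scores of -4.57 and -4.51 so their highest full-bloom group mean was above their lowest bud group mean.

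The highest of them were the CHS transcripts Cluster-72978.9, with a score of 6.50, which would have followed the third member, and Cluster-72978.4, with 6.45. Cluster-72978.9 stood at 1244 ± 178 FPKM in TZM buds (SD, n = 3), 1173 ± 662 in SZT buds, 722 ± 48.8 at MN bud stage 1 and 1585 ± 49.6 at MN bud stage 3. It was at 159 ± 32.3 FPKM at initial flowering and between 0.730 and 7 FPKM in the full-bloom group means. The ANS transcript Cluster-21086.8 scored 5.28, the F3H transcript Cluster-81276.6 scored 5.16 and Cluster-63442.2, listed as MYB_6, scored 4.99. The remaining 8 scored from 2.996 to 4.78 and were 1 CHS, 3 F3H and the factors listed as MYB_9, C2C2, bHLH_2 and bHLH_4.

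The named transcripts were followed over the same steps of MN. From MN bud stage 3 to initial flowering limma called 5 of 6 CHS, 6 of 6 F3H, 3 of 3 DFR, 1 of 3 ANS and 21 of 48 transcription factor transcripts lower, and none of these higher. Of the 18 listed for other functions it called 6 lower and 3 higher. Over all transcripts tested 9.48% were called lower and 6.88% higher in this step. From initial flowering to full bloom it called 4 of 6 CHS, 5 of 6 F3H, 0 of 3 DFR, 1 of 3 ANS and 28 of 48 transcription factor transcripts lower, and 1 transcription factor transcript higher. Of the 18 with other functions 9 were called lower and 0 higher, beside 8.64% lower and 6.01% higher over all transcripts. No ANR transcript was called in either step, although both were higher at MN full bloom than at initial flowering. Their median log2 difference was -0.17 in the first step and 2.80 in the second. Cluster-15097.13 was listed at 0 at initial flowering and read 1.79 to 43.3 FPKM at MN full bloom. Cluster-15097.15 was also listed at 0 at initial flowering and read 0.64 to 25.5 FPKM at MN full bloom. The positions of the 13 at initial flowering ran from -0.04 to 1.04, within the range of the members.

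Members that share a number with a named transcript were described further. Cluster-72978.1, the third highest score of the 200 at 6.64, shares its number with the CHS transcripts. It read 923, 782 and 725 FPKM in TZM buds, 576, 746 and 205 FPKM in SZT buds, 287, 230 and 329 FPKM at MN bud stage 1 and 647, 503 and 657 FPKM at MN bud stage 3. It read 84.7, 57.5 and 60.7 FPKM at initial flowering and at most 2.03 FPKM at full bloom. The white TZM was the highest bud group, although the difference from SZT of 0.86 (SE 0.37, limma adjusted p = 0.0796) was not called. Both the step to initial flowering, of -3.15 (SE 0.37, limma adjusted p = 9.80e-07), and the next, of -5.56 (SE 0.32, limma adjusted p = 6.73e-11), were called.

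Cluster-97515.0 shares its number with the transcripts listed as MYB_2 and MYB_9, MYB proteins being a family of transcription factors. It read 99.7, 42.9 and 52.2 FPKM in SZT buds and 12.8, 10.3 and 12.9 FPKM in TZM buds, and it was 1 of the 29 called lower in TZM, by -2.25 (SE 0.30, limma adjusted p = 4.33e-06). In MN it was at 86.9 ± 24.9 FPKM at bud stage 1 and 122 ± 32.4 FPKM at bud stage 3 (SD, n = 3), and at 4.75 ± 1.82 FPKM at initial flowering. All MN and SZT bud libraries were above all TZM bud libraries.

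Cluster-93016.3, which shares its number with a transcript listed as a MADS factor (MADS-MIKC_2), was even across the buds, at 92.7 ± 10.5 FPKM in TZM, 85.1 ± 5.68 in SZT, 139 ± 24.3 at MN bud stage 1 and 132 ± 31.5 at MN bud stage 3 (SD, n = 3). It fell to 11.5 ± 1.15 FPKM at initial flowering, by -3.39 (SE 0.35, limma adjusted p = 1.52e-07). MADS-box factors are best known for setting the identity of floral organs. Cluster-92785.1, which shares its number with a transcript listed as B3_5, was at 25.02 ± 4.37 FPKM at MN bud stage 3 and 0.970 ± 0.270 FPKM at initial flowering (SD, n = 3), a difference of -3.72 (SE 0.27, limma adjusted p = 1.70e-09). Both had lost most of their bud level at initial flowering, at positions of 0.17 and 0.06. The files do not name these members, so whether they encode the same proteins as the listed transcripts was not tested.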

How the data were processed

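RNA-seq libraries of 27 samples in 9 groups of 3 were analysed, with groups taken from the sample titles. The authors trimmed reads with Trimmomatic 0.36, assembled transcripts with Trinity and deposited FPKM per transcript, rounded to 2 decimals. The mapper and quantifier were not given in the sources used here. FPKM holds no read counts, so the count-based test named in the study's methods could not be used. Values were tested as log2(FPKM + 1) with limma 3.58.1 in R 4.3.3 (9 group means, empirical Bayes with a trend, Benjamini-Hochberg adjustment over the 55099 transcripts with a group mean of at least 5). The pseudocount of 1 understates the change of low transcripts. Calls needed a log2 difference of at least 1 in size and an adjusted p of at most 0.001. The limit on adjusted p follows the study's methods, and the minimum on the log2 scale is a reading of their fold-change limit, which they do not give as a log2 value. Full bloom of MN was the mean of the white and red regions. Tables and plots were made with Python 3.11.15, pandas 2.3.3, numpy 2.4.6 and matplotlib 3.10.9. The member rule and the limma step were tested on simulated data.

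The members, lists and tests were chosen with earlier results of these data known. Named transcripts were the 2 with the highest score, the last 2 inside and the first 2 outside the list, the 2 most abundant in buds, the 2 largest called rises and falls of each comparison, the 2 lowest and 2 highest positions of initial flowering, the study's named transcripts that reached the score of rank 200, and up to 4 members sharing a number with a named transcript. Alternatives were another pseudocount, filter, threshold, scaling, set of libraries in the fit, a replicate block and each library left out.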

Additional observations from a re-analysis of the deposited data

How the results depend on the processing

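None of the 8 results followed for named transcripts reversed under the alternatives run. The direction of the other calls was not followed one by one. At an adjusted p under 0.05 the members called came to 11 for MN bud stage 1 to stage 3, all higher. They came to 50 for SZT to TZM buds, 43 lower and 7 higher. For SZT buds to MN bud stage 3 they came to 12, of which 10 were higher and 2 lower. With a pseudocount of 0.01 they came to 4 for SZT to TZM buds, 0 for SZT buds to MN bud stage 3, 74 for MN bud stage 3 to initial flowering and 2 for MN white to red. With only the libraries of a comparison in the fit they came to 0, 0 and 73 for the first 3 of these, and the lists chosen without TZM and without SZT gave 33 and 56. The cause was not tested. Leaving out 1 library at a time gave 0 to 2 calls for MN bud stage 1 to stage 3, 21 to 30 for SZT to TZM buds, 0 to 2 for SZT buds to MN bud stage 3 (0 without MN bud stage 3 replicate 1 or 2 or SZT bud replicate 1, 2 without SZT bud replicate 3), 116 to 124 for MN bud stage 3 to initial flowering, 121 to 134 for initial flowering to full bloom and 0 throughout for white to red. It gave 132 to 145, 165 to 171 and 165 to 168 for the lists chosen without TZM, SZT and MN. The rule returned 178 to 198 of the 200 members without 1 library, 200 with a minimum of 10 FPKM, 191 with median-ratio scaling, 162 with medians in place of means and 47 with a pseudocount of 0.01 in the score. The median position of initial flowering was 0.55 to 0.61 without 1 library and 0.64 with a pseudocount of 0.01. For 8 results of named transcripts, 108 of 118 alternatives kept the call and 10 lost it. The alternatives include the adjusted p under 0.05 and a call without the log2 minimum, which only loosen the limit and could not lose a call. The 8 were also the largest called changes of their comparisons, so the tally does not describe a typical call.

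With a replicate block the calls were 0 for MN bud stage 1 to stage 3, 28 for SZT to TZM buds, 1 for SZT buds to MN bud stage 3, 128 for MN bud stage 3 to initial flowering, 133 for initial flowering to full bloom and 0 for white to red. Libraries with the same number did not deviate together, with correlations from -0.220 to 0.153 over 108 pairs of which 3 were above 0.1, so the numbers were not taken to pair the samples. Of those 108 pairs 32 correlated best with their own number.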
